A study of Homo sapiens with 2 samples.

Results

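PANK3 and PTAR1 were the protein-coding genes with most NUDT21 eCLIP peaks in 3'UTR sequence that codes for no protein in any annotated transcript, with 22 such peaks each. The members described here are the peaks whose midpoint lay in the body of either gene (GENCODE 44, hg38), 50 of the 20499 peaks in the deposited list: 27 in PANK3 and 23 in PTAR1. Both genes were chosen for their number of 3'UTR peaks, so that number, and the heights and fold enrichments that made the calls, are given as a description and with no test. The annotation bears out the name of long 3'UTRs, since 9076 nt follow the stop codon of PANK3 and 8820 nt that of PTAR1 in 1 uninterrupted last exon.

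The study mapped where NUDT21 binds RNA in J-Gamma1, labelled as T-ALL (T-cell leukemia) cells, a single mutant clone of the Jurkat line that lacks phospholipase C gamma 1. In eCLIP-seq, UV light fixes proteins to the RNA they touch, the RNA is trimmed with RNase, and the fragments that come down with an antibody are sequenced. The series held 2 samples of this 1 line, 1 made with a NUDT21 antibody and 1 input made without that selection, and the labels name no other treatment. The values below all come from the peaks of the antibody sample, so that nothing was tested between conditions and intervals reflect counting error alone. Read totals and strand were not part of the list. The depth was therefore unknown, and a peak was given to a gene by position alone. Of 11 T-cell marker genes 4 held a peak (CD3E, CD247, ZAP70 and PTPRC), against 1 of 5 B-cell and 0 of 5 myeloid markers, while CD3D, CD3G, LCK, CD28, CD2, CD5 and CD7 held none. In exons, 2 of the 11 T-cell markers held a peak, and 0 of 5 in each other list. A peak depends on more than expression, so the cell type could not be checked from this list.

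PANK3 is a pantothenate kinase and carries out the first and rate-limiting step of coenzyme A synthesis from vitamin B5. PTAR1 is a protein with prenyltransferase alpha subunit repeats that pairs with RABGGTB, the beta subunit of the Rab geranylgeranyl transferase, in an enzyme that attaches lipid groups to proteins. NUDT21 is the subunit of cleavage factor I that binds UGUA in RNA. The complex is known to favour the use of poly(A) sites that have UGUA a short distance upstream, which in many genes are the distal sites that give long 3'UTRs.

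Both genes lie on the minus strand, PANK3 (ENSG00000120137.7) at chr5:168548495-168579368 and PTAR1 (ENSG00000188647.13) at chr9:69709522-69760011. The following windows of 30 nt show the motif where peaks were highest. Each was read from the hg38 reference on the minus strand, with UGUA in capitals, in the highest 3'UTR peaks of each gene that held the motif. The PANK3 windows lay at chr5:168556449-168556478, chr5:168555688-168555717 and chr5:168553317-168553346.

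PANK3 peak of 13 steps, 1106 nt after the stop codon: aggguuugaaaugUGUAagaaccuaggagg

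PANK3 peak of 10 steps, 1867 nt after the stop codon: gccacuacccauaUGUAgcuguugagcauu

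PANK3 peak of 10 steps, 4238 nt after the stop codon: uagauuacuggcuUGUAaugcggacucugc

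The corresponding PTAR1 windows lay at chr9:69715091-69715120, chr9:69710722-69710751 and chr9:69710462-69710491. The distances are those of the first base of the capital letters, counted from 1 after the stop codon. The last of these windows holds another UGUA, left in lower case.

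PTAR1 peak of 12 steps, 3235 nt after the stop codon: uauauuaaaaauuUGUAgagcuaaagaacc

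PTAR1 peak of 10 steps, 7604 nt after the stop codon: gucuucccucuguUGUAcugcuauguuucu

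PTAR1 peak of 12 steps, 7864 nt after the stop codon: auucuaaggcuaaUGUAaugacuguagauu

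A further pair of windows shows the last annotated ends. In PTAR1 the peak nearest the end held 2 UGUA within a few bases of each other (window at chr9:69709591-69709620, chosen after its values had been seen). In PANK3 the signal AAUAAA stood 19 nt before the end (window at chr5:168548502-168548531, with AAUAAA in capitals) and no peak lay there.

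PTAR1, peak of 7 steps before the last end: auaaaguauUGUAuuucUGUAgaauaugga

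PANK3, poly(A) signal before the last end: uucuacuuucuaAAUAAAuuaucuaaguug

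Peak height is given in steps: the deposited Score took only whole multiples of 0.228, and 1 multiple is called a step. Of the 50 peaks, 44 were assigned to 3'UTRs, which is 88% (exact Clopper-Pearson 95% interval 75.7 to 95.5). In the whole list 27.3% of peaks were in 3'UTRs, but since the genes were chosen on this count nothing is read from the difference. The other 6 peaks lay in coding exons, and 0 of 50 lay in an intron. A rough limit of 3 in 50, not an exact interval, puts the intron share at up to 6%. Among all peaks within gene bodies 39.9% were intronic, and introns made up 20526 nt of PANK3 and 38238 nt of PTAR1. The choice of genes for their 3'UTR peaks bears on the intron share too, so nothing is read from this difference either.

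In PANK3 the peaks outside the 3'UTR followed the exons. Exons 1, 2, 3, 4 and 6 of the 7 exons of the canonical transcript held 1 peak each, and exon 5 held none. These 5 peaks were 9, 9, 9, 8 and 8 steps high from exon 1 onward, close to the median of 8 steps of the 3'UTR peaks. The peak in exon 1 (chr5:168579236-168579313) had its midpoint in the 5'UTR of another transcript and in coding sequence (CDS) of the canonical one. Counted over the canonical CDS of 1110 nt, PANK3 had 4.50 peaks per kb, against 2.42 per kb in its 3'UTR.

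PTAR1 differed in that it had 1 peak in its CDS of 1206 nt, or 0.829 per kb, against 2.49 per kb in the long 3'UTR. This single peak (chr9:69750764-69750926, in exon 2 of 8) had 13 steps, 1 more than the highest of the 22 peaks of the PTAR1 3'UTR, and a fold enrichment of 3.46, within their range. PTAR1 has another annotated 3'UTR, of a short transcript that ends near the start of the gene, and it held no peak. In an intron of PANK3 lie the hairpins of MIR103A1 and, on the other strand, MIR103B1, and no peak had its midpoint in either.

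The peaks stood alone on the chromosome. The nearest midpoint beyond the 3' end of PANK3 was 29854 nt away, in an intronic peak of 1 step, and beyond the 3' end of PTAR1 it was 483557 nt away, again at 1 step. On the 5' side the nearest were 1009148 nt from PANK3, at 9 steps, and 520828 nt from PTAR1, at 8 steps. No annotated gene on the opposite strand overlapped either 3'UTR.

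**Figure D1:**
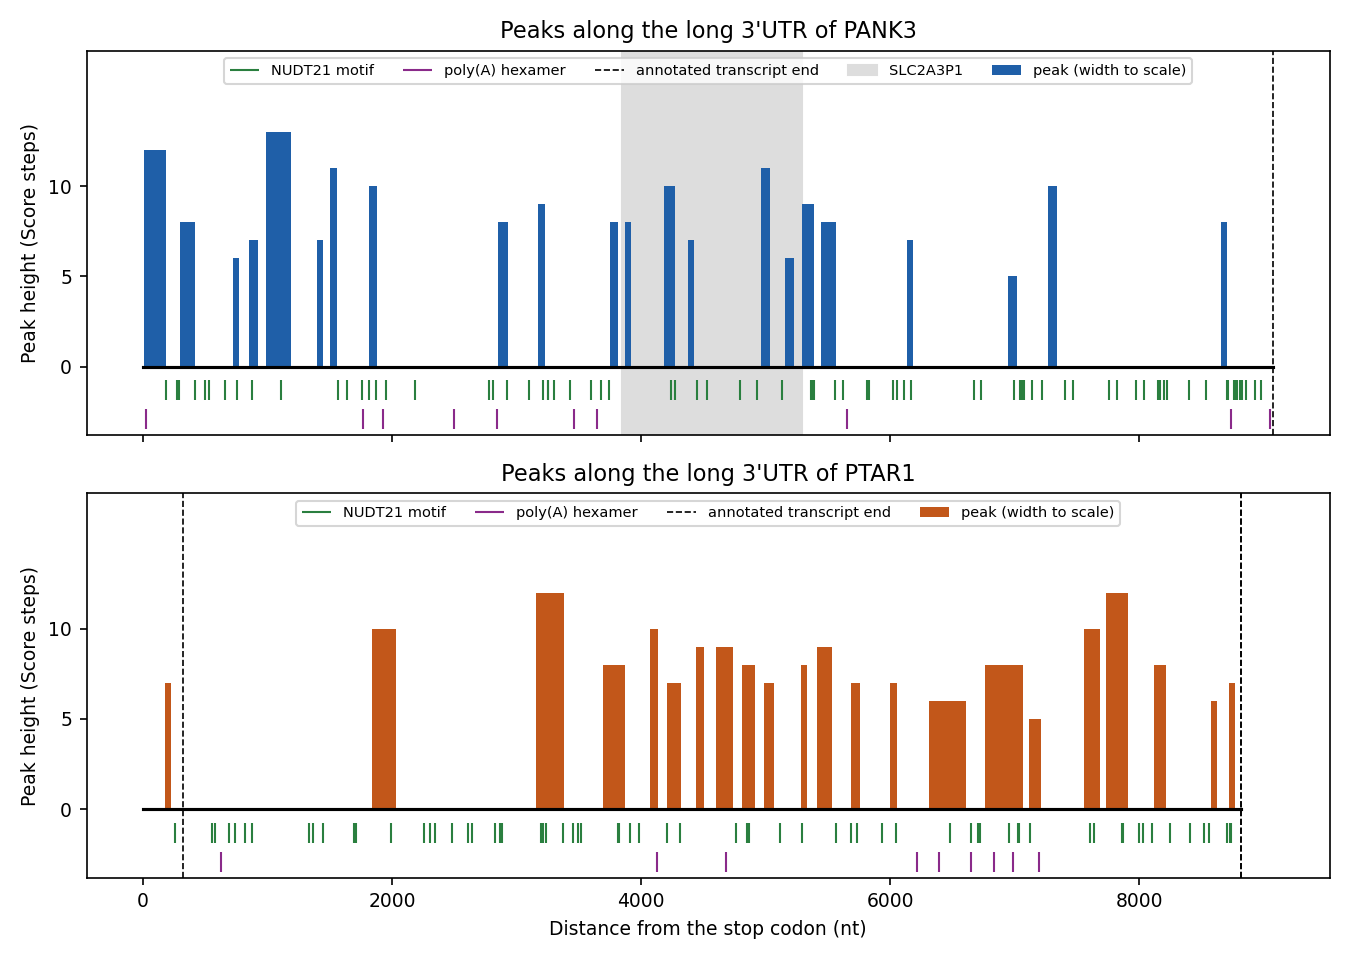
Peaks along the long 3'UTRs of PANK3 (top) and PTAR1 (bottom), with distance from the stop codon in nt on the x axis and peak height in Score steps on the y axis. Each bar is 1 peak drawn to its true width, green ticks are UGUA, purple ticks are AAUAAA, dashed lines are annotated transcript ends and the grey band is the pseudogene SLC2A3P1. PANK3 peaks thin out towards the end, while PTAR1 has 2 peaks in its first 2940 nt and 20 after that.

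Along the PANK3 3'UTR the peaks were fewest in the stretch next to the transcript end. Divided into 3 stretches of equal length, it held 9, 9 and 4 peaks. From the stop codon outward the heights in the first stretch were 12, 8, 6, 7, 13, 7, 11, 10 and 8 steps. In the middle stretch they were 9, 8, 8, 10, 7, 11, 6, 9 and 8 steps, and in the last 7, 5, 10 and 8. Height did not follow the count of peaks, since the medians of the stretches were 8, 8 and 7.5 steps.

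The highest 3'UTR peak of PANK3 was 200 nt long (chr5:168556384-168556583, 13 steps, fold enrichment 3.39), with its midpoint 1088 nt after the stop codon. It was followed by the peak next to the stop codon (chr5:168557390-168557564, 12 steps, 3.21), which began 7 nt after it. The next was a peak of 54 nt at chr5:168556017-168556070 (11 steps, 2.83). These 3 all lay within the first 1554 nt. Another peak of 11 steps (chr5:168552537-168552610, 2.72) had its midpoint much further out, 4998 nt after the stop codon. By fold enrichment, peaks at 7304 nt (10 steps, 2.98) and 4228 nt (10 steps, 2.86) also stood above the peak of 54 nt. The lowest, at chr5:168550554-168550623, had 5 steps and a fold enrichment of 1.94.

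PTAR1 had its fewest peaks next to the stop codon, with 2, 11 and 9 peaks in its 3 stretches. Whether the counts of either gene depart from an even spread was not tested. The first stretch held a peak of 7 steps (chr9:69718118-69718165, fold enrichment 2.27) close to the stop codon and 1 of 10 steps (chr9:69716315-69716502, 2.99). Gaps of 1615 nt and 1125 nt without any peak surrounded the latter, the longest in this 3'UTR. Of their 32-nt words 99.6% and 100% occur once in hg38, and they hold 12 and 10 UGUA.

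From there to the end, 20 peaks followed each other in PTAR1. Their heights were 12, 8, 10, 7, 9, 9, 8, 7, 8, 9 and 7 steps in the middle stretch and 7, 6, 8, 5, 10, 12, 8, 6 and 7 steps in the last. The highest by fold enrichment were chr9:69710430-69710607 (12 steps, 3.56), chr9:69714963-69715189 (12 steps, 3.55) and chr9:69710656-69710789 (10 steps, 3.13). The first and last of these are neighbours, with midpoints 996 and 1200 nt before the last end. PTAR1 peaks were longer, with a median of 102.5 nt (48 to 300) against 69.5 nt (48 to 200) in PANK3, and covered 30.6% of the long 3'UTR against 19.6%.

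**Figure D2:**
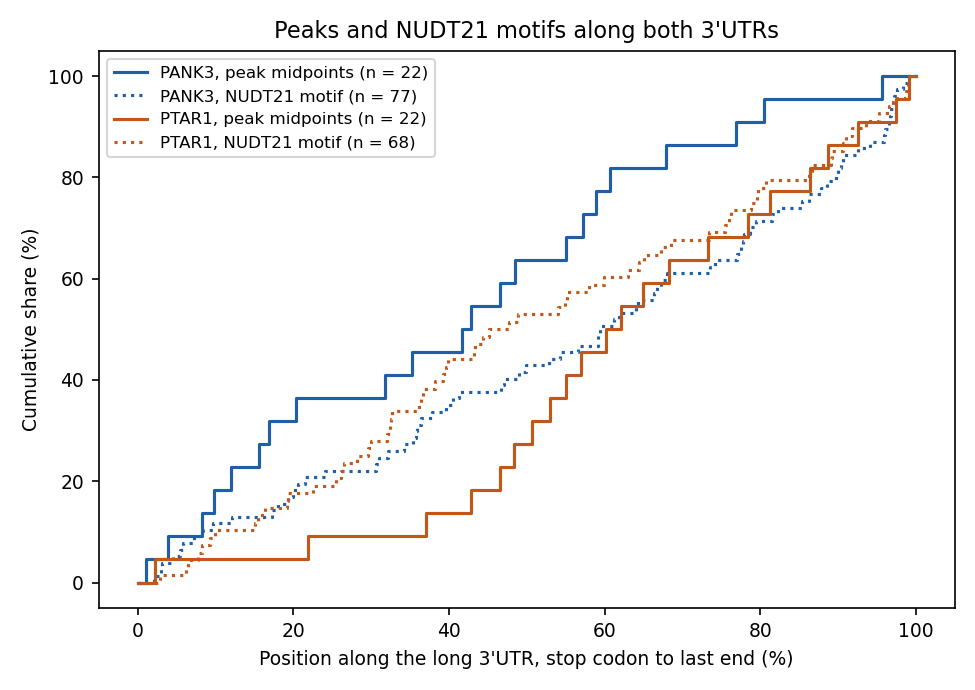
Cumulative share of peak midpoints (solid lines, 22 per gene) and of UGUA (dotted lines, 77 in PANK3 and 68 in PTAR1) along each long 3'UTR, with position from stop codon to last end in percent on the x axis. Over most of the length the peaks of PANK3 run ahead of its motifs, and those of PTAR1 lie behind until the last stretch, where both PTAR1 lines meet.

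The spacing of peaks was alike in both genes. Midpoints of neighbouring 3'UTR peaks were 107 to 1377 nt apart in PANK3, with a median of 315 nt, and 142 to 1733 nt in PTAR1, with a median of 281 nt. A spacing that recurs between neighbouring starts throughout the list, and marked 19.6% of all peaks, was found for 1 pair in PTAR1 and for none in PANK3. The PTAR1 pair (chr9:69710656-69710789 and chr9:69711132-69711229) differed in height, at 10 and 5 steps.

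All 44 3'UTR peaks had 5 or more steps, against 42.3% of the whole list, 66% (64.7 to 67.2) of the 5558 3'UTR peaks of other genes and 56.4% (54.8 to 58.0) of those 3708 of them that lay outside CDS. Their range was narrow, from 5 to 13 steps in PANK3 and from 5 to 12 in PTAR1, with a median of 8 in both. In the 3'UTR peaks of other genes the median was 7 steps (quartiles 3 and 9). Both genes lacked the peaks of 1 to 4 steps that are common elsewhere. The genes next to them by number of 3'UTR peaks outside CDS, named below, had medians of 7 to 9 steps. Height entered the calls for which PANK3 and PTAR1 were chosen, so nothing is read from these differences.

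Fold enrichment was taken here as (Score + 1) over (local background + 1). It ranged from 1.91 to 3.39 in PANK3 (median 2.44) and from 2.04 to 3.56 in PTAR1 (median 2.62). The median over the 3'UTR peaks of other genes was 2.11. Where the background is small this ratio follows the height, so it is not a measure separate from height. At least 2-fold were 20 of 22 peaks in PANK3 and 22 of 22 in PTAR1, against 38% of the whole list, 58.3% of the 3'UTR peaks of other genes and 48.1% of those outside CDS. Nothing is read from these differences either, for the same reason as for height. All 50 peaks had a false discovery rate (FDR) of 1, as did 20383 peaks of the list, in which 0.0927% had an FDR under 0.05.

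The genes differed in the local background that these ratios imply. In units of Score it ranged from 0.0960 to 0.288 in PANK3, with a median of 0.178, and from 0.0480 to 0.144 in PTAR1, with a median of 0.0576. The ranges overlapped between 0.0960 and 0.144, where 9 of 22 PTAR1 peaks and 7 of 22 PANK3 peaks lay. Since the background was solved from the fold enrichment, the values at equal height show the same difference and are no separate observation. The 3'UTR peaks of 8 steps had fold enrichments of 2.28 to 2.57 in PANK3 and 2.47 to 2.69 in PTAR1, with overlap. Within PANK3 the background was lowest in the stretch next to the transcript end, with a median of 0.101, and 0.178 and 0.192 in the others. Transcript abundance was not measured here, and its part in peak height and background was not tested.

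**Figure D3:**
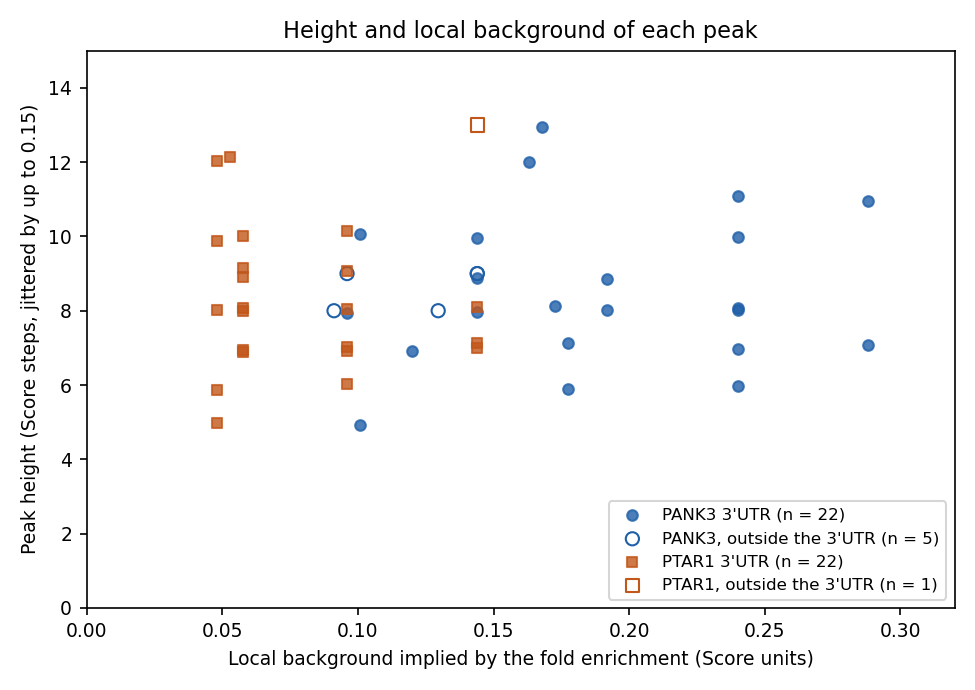
Height in Score steps (y axis) against the local background implied by the fold enrichment, in Score units (x axis), for each of the 50 peaks, with points moved slightly in height so that ties show. Filled symbols are 3'UTR peaks and open symbols the peaks in coding exons. PANK3 (circles) and PTAR1 (squares) share the same span of heights, but PTAR1 peaks sit at 0.0480 to 0.144 on the x axis and PANK3 3'UTR peaks reach 0.288.

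Both 3'UTRs were rich in UGUA by sequence alone, a measure the choice of genes did not use. Over all annotated 3'UTR sequence of the gene, UGUA stood at 8.48 per kb in PANK3 and 8.27 per kb in PTAR1. In the other 654 protein-coding genes with a 3'UTR of at least 9076 nt the median was 5.12 per kb (quartiles 4.25 and 6.04), and 2 of them exceeded PANK3 and 4 exceeded PTAR1. The 3'UTRs of these 654 genes were merged over transcripts and can include sequence that codes in another transcript, as in IGF2R. UACA, the same letters read on the opposite strand, stood at 6.39 per kb in PANK3, with 26 of the 654 above it, and at 4.14 in PTAR1, with 395 above. GC content was 35.8% and 33.8%, against a median of 40.1%.

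Within these 3'UTRs the density of UGUA in peaks and in the rest could not be told apart at these counts. In PANK3, 14 UGUA lay in the 1782 nt of peaks, or 7.86 per kb, and 61 in the 7294 nt outside, or 8.36 per kb. A further 2 spanned a peak edge, as did 1 in PTAR1. The ratio was 0.939, with an exact 95% interval from the counts of 0.485 to 1.70. In PTAR1, 25 UGUA in 2697 nt of peaks gave 9.27 per kb and 42 in 6123 nt outside gave 6.86 per kb, a ratio of 1.35 (0.789 to 2.27). For both genes together the ratio was 1.13 (0.764 to 1.65), so that each interval includes 1.

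The opposite strand served as a comparison. UACA occurred 4 times in its peaks and 54 times outside, a density ratio of 0.303, and 11 and 25 times in PTAR1, a ratio of 0.999. The PANK3 peaks also had less U (28.5%) than the rest of the 3'UTR (35.2%) and more G and C (40.0% against 34.8%). In PTAR1 these shares were nearer to each other, with 32.9% and 36.3% U and 35.1% and 33.2% G and C.

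At least 1 UGUA was present in 12 of 22 PANK3 peaks and in 14 of 22 PTAR1 peaks, together 59.1% (43.2 to 73.7). Of all windows of the same lengths in the same 3'UTRs, 47.4% held the motif in PANK3 and 54.9% in PTAR1. In 5461 3'UTR peaks of other genes the share was 40.8% (39.5 to 42.1), and in 3630 outside CDS 50.2% (48.6 to 51.9). They had 4.79 and 5.50 UGUA per kb of peak. These sets are smaller than the 5558 and 3708 peaks used for height. Peaks of those larger sets had median lengths of 97 and 112 nt, against 74 nt in PANK3 and PTAR1, and longer peaks hold more motifs. More than 1 UGUA was found in 2 PANK3 peaks and 8 PTAR1 peaks, with 4 in the PTAR1 peak at chr9:69714963-69715189. In PANK3 the peak of 13 steps held 1, and the peak of 12 steps and both of 11 steps held 0. In PTAR1 the peaks of 12 steps held 4 and 2, and the 3 peaks of 10 steps held 1, 0 and 2 from the stop codon outward.

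The nearest peak lay at unlike distances from the last annotated end of each gene. The single annotated end of PANK3 lies at 168548495, and the nearest peak (chr5:168548865-168548916, 8 steps, fold enrichment 2.57) had its midpoint 395 nt before it. The 370 nt after that peak held no further peak but 9 UGUA and 2 AAUAAA. One AAUAAA is that printed above, and the other began 8740 nt after the stop codon, within 150 nt after the midpoint of this last peak at 8681 nt. In PTAR1 the last peak (chr9:69709578-69709625, 7 steps, 2.37) had its midpoint 79 nt before the last end at 69709522, and both its UGUA, at 78 and 86 nt before that end, are those printed above. Neither AAUAAA nor AUUAAA occurred in the last 40 nt of PTAR1.

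PTAR1 has an early annotated end too, 321 nt after the stop codon, in a transcript whose start is not defined. The peak of 7 steps next to the stop codon had its midpoint 120 nt before that end and held no UGUA. Within 150 nt of an annotated end there were thus 0 of 22 peaks in PANK3 and 2 of 22 in PTAR1, together 4.55% (0.555 to 15.5). All others were more than 150 nt from each annotated end. PTAR1 has 4 annotated ends and PANK3 has 1, so nothing is read from the difference between 0 and 2.

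Hexamers that can serve as poly(A) signals occurred inside both 3'UTRs. AAUAAA was found 10 times in PANK3, 1 of them in a peak, and 9 times in PTAR1, 6 of them in peaks. AUUAAA was found 8 and 13 times, with 3 in peaks in each gene. Peaks covered 19.6% of the long 3'UTR of PANK3 and 30.6% of that of PTAR1. Whether the counts in peaks differ from these shares was not tested. Of the PTAR1 AAUAAA, 6 stood between 6217 and 7197 nt after the stop codon, where the peaks of 295 and 300 nt, the longest of both genes, also lay. Which of these signals are used was not measured here.

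A stretch of the PANK3 3'UTR is annotated as a processed pseudogene on the same strand. SLC2A3P1, derived from the glucose transporter gene SLC2A3, lies at chr5:168552277-168553727, or 3844 to 5294 nt after the stop codon, and 5 of the 22 peaks had their midpoint in it. They were 8, 10, 7, 11 and 6 steps high. The pseudogene matched the SLC2A3 transcript at 80.2% of 1204 aligned nt, 7 of its 1420 words of 32 nt also occurred in that transcript, and none of these lay in the 5 peaks. SLC2A3 itself held 0 peaks. Without the 5 peaks PANK3 kept 17 in its 3'UTR, and the UGUA ratio of both genes was 1.19.

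Repeated sequence lay mostly outside the peaks. In PTAR1 99.8% of 32-nt words of the long 3'UTR occur once in hg38, and all words of all 22 peaks do. In PANK3 the share was 93.3%, with 97.5% in peaks and 92.7% outside, and 20 of 22 peaks, the 5 in SLC2A3P1 among them, had no repeated word. The longest gaps of PANK3, of 1314 and 972 nt, had 90.6% and 76.0% single-copy words and held words with up to 347 and 48608 copies. Whether reads were lost there was not tested.

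Set against other genes by length, both 3'UTRs had more peaks per kb and a larger share covered than the median gene with a 3'UTR peak. Over all annotated 3'UTR sequence PANK3 had 2.42 peaks per kb and PTAR1 2.12, against a median of 0.458 over the other 2724 genes with a 3'UTR peak. Among all genes with a 3'UTR peak, 82 and 120 had more per kb than PANK3 and PTAR1. The median 3'UTR length of the other 2724 genes was 3647.5 nt. Among the 654 genes with a 3'UTR at least as long, 239 had a 3'UTR peak, with a median of 2 peaks and 0.144 per kb. With PANK3 and PTAR1 ranked among these long genes, none exceeded PANK3 per kb. The 2 above PTAR1 were PANK3 and IGF2R (2.19 per kb), which had 3 of its 27 3'UTR peaks outside CDS. The share of annotated 3'UTR sequence covered by peaks was 19.6% in PANK3 and 25.9% in PTAR1, against a median of 5.47% over the other 2724 genes. Among all genes with a 3'UTR peak, 283 and 141 stood higher. The median of the 239 long genes with a 3'UTR peak was 2.45%. With both genes ranked among them, 3 had a larger share than PANK3, PTAR1 included, and 1 than PTAR1. Both genes were chosen for their count of 3'UTR peaks, and PANK3 itself set the length limit. Nothing is therefore read from these ranks per kb or by share covered.

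**Figure D4:**
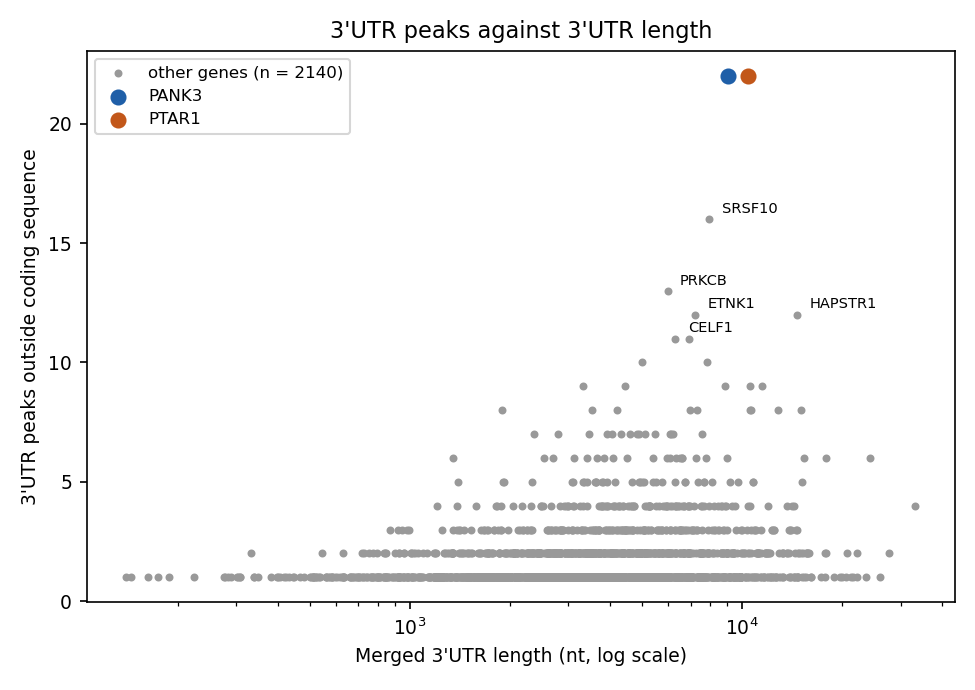
Number of 3'UTR peaks outside CDS (y axis) against the length of all annotated 3'UTR sequence in nt on a log scale (x axis), 1 point per gene with at least 1 such peak. PANK3 and PTAR1 stand at 22 peaks and 9076 and 10398 nt, and the named genes are the 5 that come next, from 16 peaks in SRSF10 to 11 in CELF1.

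The genes most like them by the number of 3'UTR peaks outside CDS were SRSF10, which encodes a splicing factor, with 16, and PRKCB, which encodes a protein kinase C, with 13. ETNK1, an ethanolamine kinase gene, and HAPSTR1 had 12 each and CELF1, which encodes an RNA-binding protein, 11. The gap between 22 and 16 has no replicate to set it against. The heights of these peaks were alike, with medians of 8 steps in SRSF10, PRKCB and ETNK1, 7 in HAPSTR1 and 9 in CELF1. Per kb the counts were 2.01 in SRSF10 and 2.18 in PRKCB, next to those of PTAR1, and 0.820 in HAPSTR1, the longest.

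Other genes of both pathways had at most 1 3'UTR peak each. Of 19 genes listed for coenzyme A synthesis (9) and protein prenylation (10), 7 had a 3'UTR peak, where 14.3% of all protein-coding genes did. The median was 0 peaks in the list and over all genes. With coding positions left out, 4 of 19 had one, against 11.3%.

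In coenzyme A synthesis the 3'UTR peaks were those of PANK2 (8 steps, fold enrichment 2.54) and PANK4 (2 steps, 1.39), relatives of PANK3, of COASY (7 steps, 1.94), which catalyses the last steps, and of SLC5A6 (8 steps, 2.47), the vitamin transporter. Those of PANK2 and PANK4 also lay in CDS of another transcript. PPCS, DCAKD and SLC25A42 held peaks only outside 3'UTRs, of at most 4 steps, and PANK1 and PPCDC held none.

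In protein prenylation FNTA, the alpha subunit of farnesyl transferase, had a 3'UTR peak of 1 step (1.17), CHML, a Rab escort protein, 1 of 8 steps (2.57), and YKT6, a SNARE protein that is itself prenylated, 1 of 10 steps (2.62) that also lay in CDS. RABGGTB, the partner of PTAR1, had 1 intronic peak of 14 steps (2.498) and no 3'UTR peak. RABGGTA, FNTB, CHM and FBXL2 had peaks outside 3'UTRs only, and PGGT1B and SKP1 had none. The 3'UTRs of PGGT1B (8390 nt) and SKP1 (9954 nt) are about as long as those of PANK3 and PTAR1.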

How the data were processed

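Per the labels, J-Gamma1 cells were irradiated with UV-C light of 254 nm, lysed and treated with RNase I, and 1 NUDT21 antibody and 1 input library were made. Groups came from the treatment label. The authors trimmed reads with fastp, removed duplicates by molecular identifier and ribosomal reads, mapped to hg38 and called peaks with MACS2 on this single replicate. The aligner, and whether the input was the control, are not given in the sources used here. The deposited columns were peak position and length, Score (a pileup signal, unit not stated by the authors), fold enrichment (a ratio of peak to local background), p-value and FDR (a q-value). The methods give a q-value limit of 0.05, whereas nearly all deposited FDR values are 1 and each p-value is under 0.05.

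Peaks were assigned by midpoint with GENCODE 44, 3'UTR taking precedence over 5'UTR, then CDS, noncoding exon and intron, with the stop codon left out of 3'UTRs. The background was solved from the fold enrichment as (Score + 1) over (background + 1). UGUA and UACA (the same motif on the other strand), AAUAAA and AUUAAA were counted on the gene strand of hg38, and 32-nt words on both strands of its sequences other than alternate and patch ones. SLC2A3P1 was aligned with blastn 2.17.0. Intervals came from scipy 1.17.1, sequences from pysam 0.24.0, tables from pandas 2.3.3 under Python 3.11.15 and plots from matplotlib 3.10.9, and the counting was tested on simulated data.

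The members, lists and limits were chosen with earlier results of these data known. Named were the pathway genes with a peak, the 5 genes with most 3'UTR peaks outside CDS (ties by symbol), and in each gene the 3 highest 3'UTR peaks, those nearest the stop codon and the last end, and those outside the 3'UTR. Further peaks named in the text were picked after their values were seen. Alternatives were stricter limits on peaks, merging within 100 nt, CDS in precedence, any overlap, 1 transcript per gene, and other motifs, windows, distances and strands.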

Additional observations from a re-analysis of the deposited data

How the results depend on the processing

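The count of 3'UTR peaks lay between 15 and 22 in each gene under all alternatives but an FDR under 0.05, which left 0 peaks in either, 0 per kb, 0% of the 3'UTR covered and 0 pathway genes. Merging within 100 nt gave the lower counts, 16 in PANK3 and 15 in PTAR1. Leaving out the SLC2A3P1 peaks was an alternative added once the data were known. Pathway genes with a 3'UTR peak fell from 7 to 4 with CDS in precedence or a fold enrichment of at least 2 and to 3 with 1 transcript per gene. The share within 50 nt of an end was 0% (upper limit 8.04%). The share of peaks with UGUA was 36.4% for UGUAA or UGUAU, 27.3% on the opposite strand and 88.6% with peaks extended by 50 nt, as longer windows hold more motifs. The density ratio was 0.569 on the opposite strand and 0.953 for UGUAA or UGUAU, on the other side of 1. In PANK3 alone it crossed 1 with extended peaks (1.11) and without SLC2A3P1 (1.06). In all, 67 recomputations of the main results, those with merged peaks and without SLC2A3P1 included, stayed within 1.5 times or within their interval. No paired analysis was possible because each group had 1 library. One library leaves reproducibility unmeasured, and the unknown depth limits what a missing peak can show.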
